A study of Glycine max with 8 samples.

Results

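The 100 soybean genes described here had reads in every nodule library of plants that received the strain Bra.Q2 alone and were close to silent in every library of plants that also received the strain Bac.B. They were chosen by measured values of this same contrast, out of 43517 genes in the deposited table. Counts were scaled to a common library total (CPM), and a gene could enter when its highest value among the BR libraries was under 2 CPM. The score was the log2 ratio of the lowest R library to the highest BR library, after 0.5 CPM had been added to each, and the 100 genes with the highest scores were taken from the 16713 genes under the limit. Of these 16713, 3607 had no count in any library, and 365 had every R library above every BR library. Because the rule used the R and BR values, the fall from R to BR is given below as a description and no test of it is offered as support.

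Nodule RNA (Glycine max) was sequenced from 2 groups of 4 libraries, all from plants given little nitrogen. Group R (R1 to R4) was inoculated with Bra.Q2, and group BR (BR1 to BR4) with Bra.Q2 and Bac.B together; the plant genotype and age are not given in the sources used here, and neither are the species behind the strain codes. No library without Bra.Q2 was analysed. Totals were 15133989 to 17287964 counts in BR and 14223489 to 15266510 in R, so 1 CPM stood for 14.2 to 17.3 counts. The labels do not say whether libraries came from separate plants, so the spread between them may be technical.

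Legume nodules form on roots when compatible rhizobia are admitted, and the bacteria then fix nitrogen inside infected plant cells in exchange for carbon. A nodule also holds uninfected cells, vascular bundles and a cortex, and it passes through stages of growth, fixation and senescence, each with its own set of active genes. A transcript at a few CPM in whole nodules can be weakly active everywhere or strongly active in a few cells; fewer cells of a type and less RNA per cell cannot be told apart here. The deposited identifiers, of the Wm82.a2.v1 annotation, come with no names or descriptions in the sources used here, and 0 of them matched the 59048 genes of the reference table. No function is therefore assigned to any member, and the nodule label could not be checked against marker genes. A member is called by its rank in the selection score and by the chromosome number that its identifier carries; identifiers are printed for the 2 highest-ranked members.

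The member with the highest score was Glyma.05G082400.Wm82.a2.v1, on chromosome 5. It had 475, 334, 421 and 219 counts in R1 to R4 and 14, 16, 22 and 22 in BR1 to BR4. Its level was 24.5 ± 7.42 CPM in R and 1.13 ± 0.231 CPM in BR (SD, n = 4). It also had the highest mean R level of the 100. Its lowest R library, R4 at 14.9 CPM, was 11.2 times the highest BR library. In the fit over all genes the log2 fold change of this gene, BR over R, was -4.63 (SE 0.28; adjusted p = 0.000218 in edgeR's quasi-likelihood test). The gene was picked from this same contrast, so these values only describe it.

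Glyma.06G136300.Wm82.a2.v1, on chromosome 6, ranked second on both measures. It is a short gene of 455 bases, and it is named because the naming rule pointed to the chromosome 5 gene under both of its parts; this choice was made after its values had been seen. It had 162, 284, 249 and 262 counts in R1 to R4 and 3, 25, 23 and 12 in BR1 to BR4, which is 16.3 ± 3.85 CPM in R and 0.938 ± 0.593 CPM in BR (SD, n = 4). Within BR it was lowest in BR1. Scaled for gene length as well as library total (FPKM, as deposited by the authors), it was the most strongly expressed member in R, at 35.8 ± 8.45 FPKM against 2.06 ± 1.30 FPKM in BR. The chromosome 5 gene, which is 3077 bases long, had 7.98 ± 2.41 FPKM in R.

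**Figure D1:**
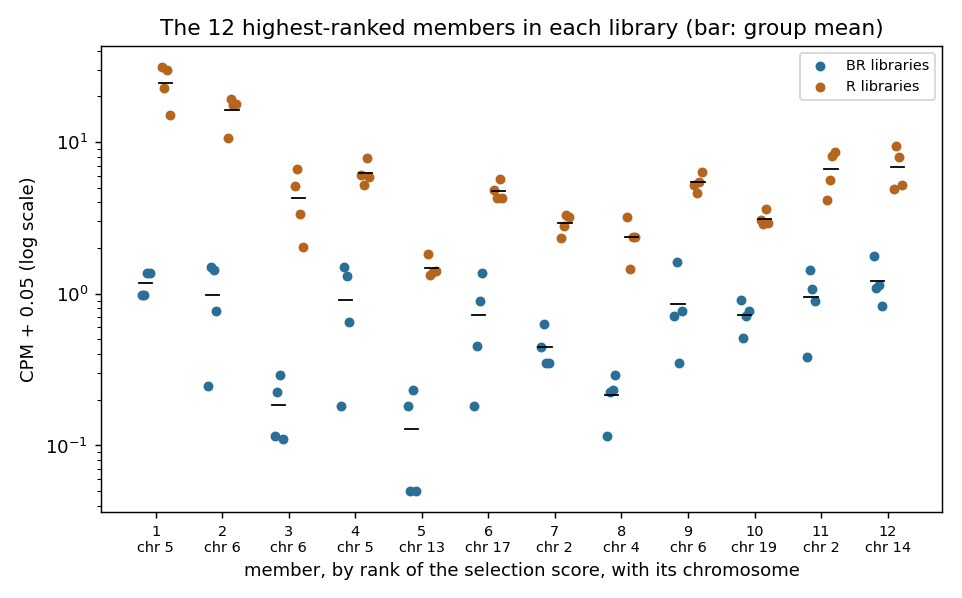
CPM plus 0.05 on a log axis for the 12 members with the highest selection scores, in the 4 BR libraries (blue) and the 4 R libraries (brown); bars are group means. The R values of the first member reach 31.1 CPM, and every blue point lies below all brown points of its member, which the rule required.

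The next members were weaker, and several had only a handful of reads in BR. The member ranked 3, on chromosome 6, had 77, 97, 47 and 29 counts in R1 to R4 and 1, 3, 4 and 1 in BR1 to BR4. The member ranked 5, on chromosome 13, had 27, 19, 19 and 20 counts in R and 2, 0, 3 and 0 in BR. Both kept the groups far apart although neither exceeded 6.54 CPM anywhere. The member ranked 16, on chromosome 1, averaged 4.89 CPM over the R libraries and 0.116 CPM over the BR libraries, and its R values ran from 1.51 CPM in R1 to 10.2 CPM in R4. Its ratio of group means, 42.0, was the largest among the 98 members with more than 3 counts over BR, but 7 of its 8 BR counts were in BR2. Without R4 the ratio was 26.9, and without BR2, where 1 BR count was left, the ratio of summed counts was 234 with an exact 95% interval of 41.7 to 9289 for counting error only.

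A single member had no read in any BR library. It is the member ranked 54, on chromosome 4 and 695 bases long, with 11, 4, 24 and 7 counts in R1 to R4. Set against a floor of 3 counts over the summed BR libraries, or 0.0457 CPM, its level was at least 17.1-fold lower in BR. The bound allows for the counting error of the BR zero only and takes the R level as measured; R3 gave 24 of the 46 R counts, and without R3 the bound was 10.8-fold. The member ranked 91, on chromosome 9, had 30 counts over R and 3 over BR, a ratio of 11.1 with an exact 95% interval of 3.46 to 57.0, again for counting error only. The word silent thus fits few of the genes in a strict sense: 82 of the 100 had at least 1 count in all 4 BR libraries, and 11 had at most 3 counts in each of them.

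Across the 100 members the mean R level ranged from 0.507 to 24.5 CPM with a median of 3.21 CPM, and the mean BR level from 0 to 1.66 CPM with a median of 0.681 CPM. For comparison, the median over the 29508 genes that passed the low-count filter of the test was 8.56 CPM in R and 9.61 CPM in BR. Most members were thus weakly expressed genes in R as well. In R, 11 members averaged under 1 CPM, 17 from 1 to 2, 56 from 2 to 5, 13 from 5 to 10 and 3 at least 10 CPM. Per gene length the picture was similar, with a median of 2.21 FPKM in R and 0.417 FPKM in BR. In R, 14 members lay above the tested genes' median of 4.30 FPKM, and in BR 0 members lay above that group's median of 4.82 FPKM.

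**Figure D2:**
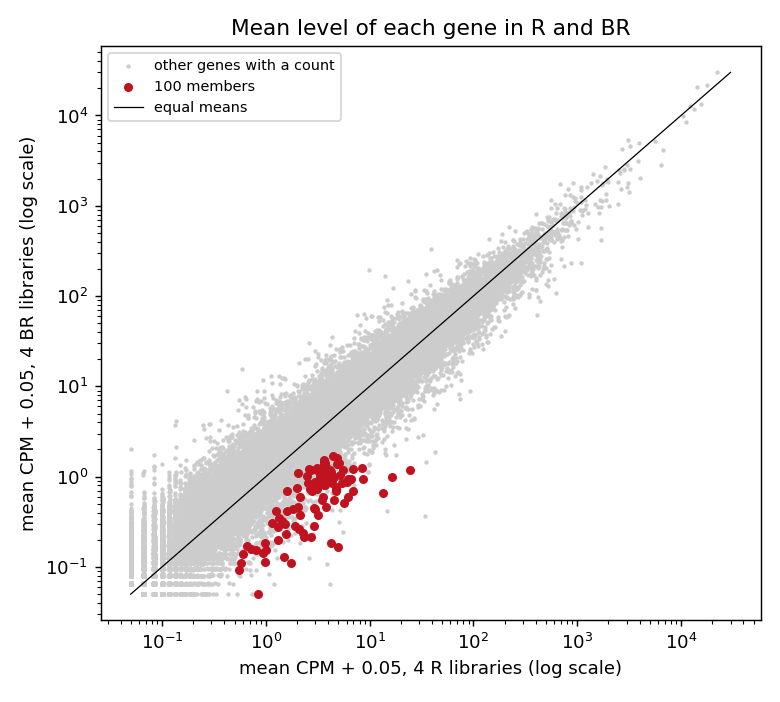
Mean CPM plus 0.05 in the 4 R libraries (horizontal) and the 4 BR libraries (vertical), both on log axes, for all genes with a count (grey) and the 100 members (red); the line marks equal means. Members lie below the line at low levels, with R means up to 24.5 CPM and BR means up to 1.66 CPM; some grey points fall as far below the line but were kept out by a single library or by the BR limit.

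The size of the fall varied widely among members. For the 98 with more than 3 counts over BR, the ratio of the R mean to the BR mean ranged from 1.92 to 42.0 with a median of 5.15. It was under 3 for 14 members, from 3 to 5 for 33, from 5 to 10 for 36 and at least 10 for 15. The distance between the nearest libraries was smaller: for 47 members the lowest R library was less than 2 times the highest BR library, and for 7 it was at least 4 times. All members separated the groups, as the rule fixes, whereas 6.91% of the tested genes had all 4 R libraries above all 4 BR libraries.

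Of the 100 members, 88 passed the low-count filter and 88 of these were called lower in BR (edgeR, adjusted p below 0.05), beside 10.3% of all tested genes. This count restates the selection, and nothing is read from it. Members could pass the filter through the R libraries alone. Their log2 fold changes lay between -5.43 and -1.13 with a median of -2.45, against a median of -0.02 over all tested genes, and their edgeR adjusted p-values reached 0.0397 at most. With library totals in place of TMM scaling the median over all genes was 0.18 and that of the members -2.26, 87 of the 88 were called lower, and over all genes the calls shifted from 2355 higher and 3054 lower to 4291 higher and 1739 lower. The 12 members that did not pass averaged 0.507 to 2.22 CPM in R.

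Added over all members, all 4 R libraries stood at a similar height. The rule used the lowest R and the highest BR library of each gene, so it favoured both this evenness and the gap to BR. Nothing is read from either. The 100 genes together made up 362, 352, 434 and 331 CPM in R1 to R4 and 56.3, 71.2, 75.2 and 67.6 CPM in BR1 to BR4. Without the 2 highest-ranked members these sums were 329 ± 39.7 CPM in R and 65.5 ± 7.46 CPM in BR (SD, n = 4). In raw counts the sums were 4862 to 6177 in R and 852 to 1248 in BR, and the totals of 3 BR libraries were larger than that of any R library. Every R library held at least 4 counts of every member, while 90 to 96 of the members had a count in a given BR library.

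Within R the members did not share a single profile. Spread was measured as the chi-square of the 4 counts against a common rate, per degree of freedom, which is about 1 for counting noise alone. It grows with the counts, so a low value in a weakly counted gene does not show that its libraries were even. Its median over the members was 4.90 in R, where 29 members were under 2 and 33 over 10, and 1.45 in BR, where 61 were under 2. Over all tested genes the median was 6.03 in R and 4.53 in BR. R values well above 1 thus also occurred outside the members, but these medians do not say which genes were the more uneven. The tested genes had higher median levels, so their values and those of the members are not on equal terms.

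Members with a low value included the one ranked 10, on chromosome 19, with 3.01, 2.83, 3.59 and 2.86 CPM in R1 to R4, and the one ranked 25, on chromosome 14, with 0.721, 0.877, 0.984 and 0.954 CPM, the latter on only 11 to 14 counts per library. In BR these genes reached at most 0.859 and 0.132 CPM. At the other end, the highest R library exceeded the lowest by more than 5 times in 12 members. The widest range belonged to the member ranked 44, on chromosome 19, with 21.2, 25.4, 5.34 and 2.11 CPM in R1 to R4. The member ranked 75, on chromosome 8, was also highest in R1 and R2, with 7.27, 15.4, 3.09 and 1.64 CPM. The member ranked 82, on chromosome 12, was high in R3 alone, with 1.24, 0.809, 7.94 and 1.36 CPM, and the member ranked 63, on chromosome 3, was high in R3 and R4, with 2.1, 1.01, 5.77 and 6 CPM.

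**Figure D3:**
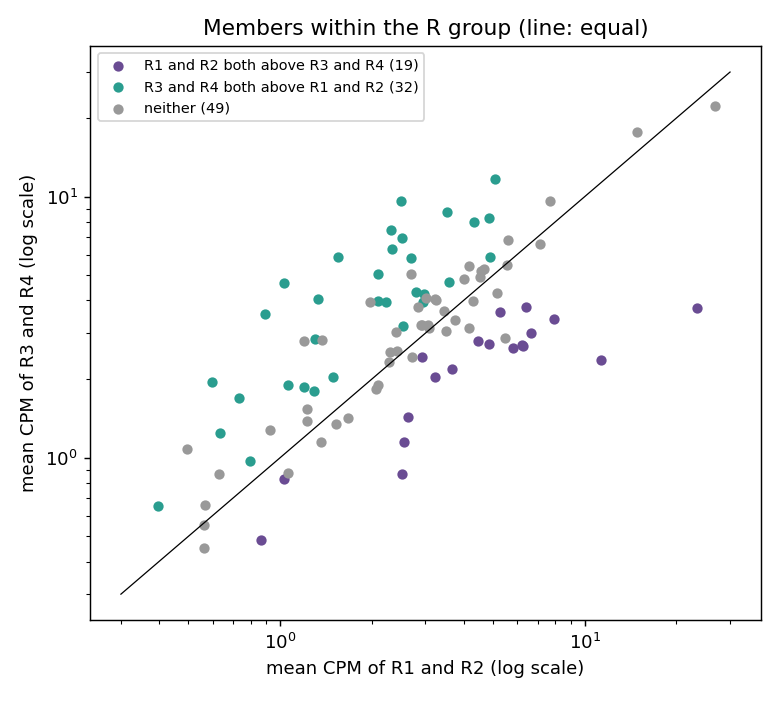
Mean CPM of R1 and R2 (horizontal) and of R3 and R4 (vertical) for each member, on log axes; the line marks equal means. In 32 members R3 and R4 both exceeded R1 and R2 (green), in 19 the reverse held (purple), and 49 showed neither order (grey).

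R3 and R4 were both above R1 and R2 in 32 members, and R1 and R2 both above R3 and R4 in 19. Over all tested genes these orders occurred in 33.8% and 29.1%. R3 was the highest R library for 36 members, against 25.6% of all tested genes, and R2 for 20, against 32.5%. The lowest R library, which sets the score, was R2 for 42 members, R4 for 28, R1 for 19 and R3 for 11. R2 was thus the library that most often limited a member, and it was the lowest R library in 30.4% of all tested genes. On the BR side the highest library was BR3 for 37 members, against 23.6% of all tested genes, and BR1 alone was the lowest for 43, against 33.8% of all tested genes. No test was made of these shares, since the rule used the same values.

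The borders of the group were set by small differences. The members ranked 99 and 100 scored 0.3985 and 0.3973. The first gene outside also scored 0.3973, with the same 8 counts in R2 and 5 counts in BR2 as the member ranked 100, and the tie was settled by the order of the deposited table. The next genes outside scored 0.3939. At the other limit, the members with the highest BR libraries reached 1.87 CPM, and the nearest genes of such a score that were kept out reached 2.03, 2.05 and 2.05 CPM. In all, 433 genes at or above the BR limit had a score at least as high as that of the last member, 65 of them with a highest BR library under 5 CPM. The members are therefore the low end of a wider set of genes with scores at or above that of the last member, and not the ones with the largest absolute loss. Such a score does not need a wide gap: among members the lowest R library was as little as 1.41 times the highest BR library.

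Judging each gene by its lowest R and highest BR library also kept out genes with strong but uneven R levels. When group means replaced the lowest and highest library, the BR limit of 2 CPM applied to the BR mean as well. With both changes 38 of the 100 members were taken again and 62 other genes entered, 32 of which overlapped between the groups. In 38 of the 62 the highest R library was R3. A gene on chromosome 6 had 1.24, 0.472, 121 and 15.3 CPM in R1 to R4 and 0.241 to 0.463 CPM in BR, and a gene on chromosome 17 had 4.78, 2.56, 129 and 32.9 CPM in R and 1.27 to 2.59 CPM in BR. Both were over 100 CPM in R3 alone. The chromosome 17 gene was also over the BR limit, with 2.05 CPM in BR1 and 2.59 CPM in BR3. A gene on chromosome 11 was high in every R library, with 27.6, 34.7, 41.6 and 36.4 CPM, and was no member only because BR2 reached 2.08 CPM; BR1, BR3 and BR4 had 0.463, 1.27 and 1.74 CPM. These 3 were the entrants with the highest R means, picked after the values were seen.

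The mirror image of the rule gave a larger group. With R and BR exchanged, 444 genes stayed under 2 CPM in every R library and reached at least the score of the last member, compared with 101 genes in the direction of the members, the tied gene included. With TMM-scaled totals, which lower all BR values relative to R, the numbers were 292 and 146. These 444 genes were at levels like those of the members, with a median of 2.52 CPM in BR and 0.628 CPM in R, and 6 of them averaged at least 10 CPM in BR. The excess over the members' direction was present with both scalings; no test of it was made.

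The median length of the members was 1507 bases, with quartiles of 1088 and 1981, while the tested genes had a median of 1904 bases and quartiles of 1359 and 2595. Genes of up to 1000 bases made up 23 of the 100 members and 18 of the 88 tested ones, compared with 10.4% of all tested genes. The 444 genes of the exchanged rule were also short, with a median of 1556 bases and 22.1% of up to 1000 bases. Short genes collect fewer reads at equal expression, and the rule set its limit in reads per library without regard to length; how far that shaped the group was not tested. With FPKM in place of CPM, 70 of the members were taken again.

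Members lay on all 20 chromosomes, and 1 was on an unplaced scaffold. Chromosome 6 held 11, where its share of the tested genes corresponds to 5.67 of 100, and chromosome 14 held 7, where its share corresponds to 3.83. Chromosomes 3 and 16 held 2 each. A single pair of members was adjacent along a chromosome in identifier order, those ranked 12 and 25 on chromosome 14. The member ranked 12 had 4.85, 9.37, 7.94 and 5.18 CPM in R1 to R4 and 1.72, 1.04, 1.09 and 0.782 CPM in BR1 to BR4, and its neighbour, ranked 25, stayed under 1 CPM throughout. The members ranked 6 and 93 on chromosome 17 were 3 places apart, and pairs up to 8 places apart lay on chromosomes 6, 7 and 18. Further along chromosome 14 the members ranked 27 and 88 were 4 places apart. They had 3.57 ± 0.932 and 3.63 ± 0.898 CPM in R and 0.828 ± 0.166 and 1.41 ± 0.268 CPM in BR (SD, n = 4). The identifiers carry no strand, so whether neighbours share reads was not tested.

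The genes directly beside members were followed as well. There were 196 that were not members themselves, and 135 were tested; 28 of these were called lower, or 20.7%, against 10.3% of all tested genes, and 8 were called higher, or 5.93%, against 7.98%. Their median log2 fold change was -0.18, against -0.02 for all tested genes. With library totals alone 19 of the 135 were called lower, beside 5.89% of all genes. With BR3 left out 15 neighbours were called lower, and 5.16% of all tested genes. The tested genes differ in that fit and the number of neighbours among them is not given, so these 2 values cannot be compared. These neighbours were measured in the same libraries and contrast that chose the members, and the difference in shares was not tested.

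**Figure D4:**
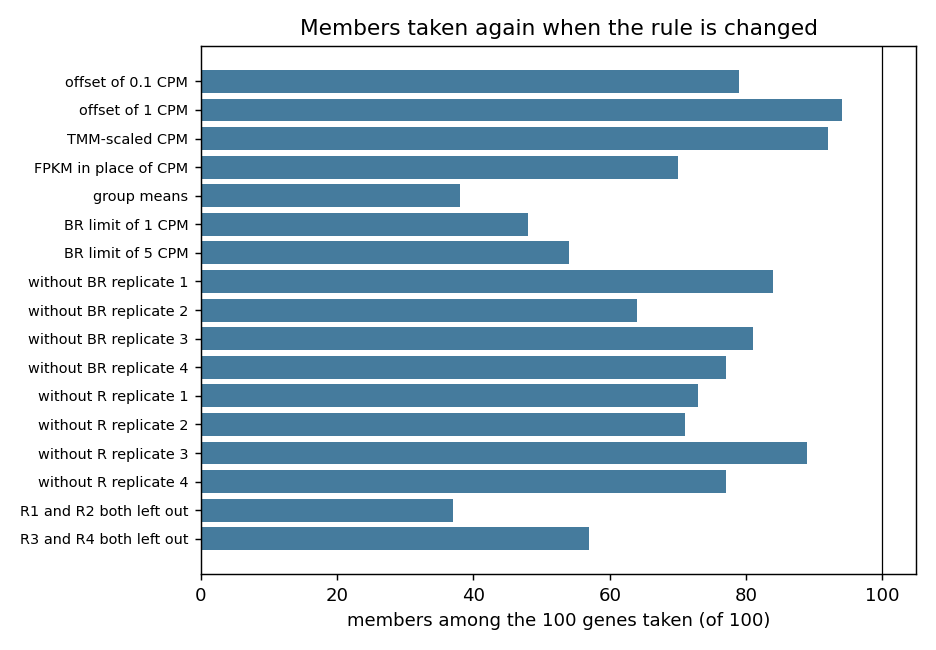
Number of the 100 members that are among the 100 genes taken when the selection rule is changed, per setting (bars start at 0; the line marks 100). The counts run from 37 when R1 and R2 are both left out to 94 with an offset of 1 CPM.

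Membership was compared between the upper and lower ranks. With an offset of 0.1 or 1 CPM, with TMM-scaled CPM, or with any single library left out, all of the members ranked 1 to 50 were taken again. Of those ranked 51 to 100, between 14 and 44 were. Among single libraries, leaving out BR2 changed the group most, and 64 of the 100 were taken again. Leaving out a library cannot lower a member's score or lift it over the BR limit. A member is then lost only where other genes pass it. The settings with a library left out thus favour keeping the high ranks, and no stability is read from them. In all 17 alternative settings 10 members were taken, 4 of them among the 10 highest ranks. A stricter BR limit of 1 CPM kept 48, the members whose highest BR library was under that limit, with 24 from ranks 1 to 50 and 24 from ranks 51 to 100. A looser limit of 5 CPM kept 54, since genes with BR libraries between 2 and 5 CPM then took the other places.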

How the data were processed

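Nodule RNA was extracted with Trizol, and a VAHTS Universal V6 kit was used to make Illumina libraries, per the labels' protocols; these do not say whether strand was kept. The authors deposited raw read counts per gene and FPKM, the latter for 39910 of the 43517 genes, with no pooling of libraries. Dividing counts by FPKM gave the same length for a gene in every library, which was used as gene length. Per the submitters' processing notes, the tools included HTSeq 0.6.0, HISAT2 2.1.0, Bowtie2 2.2.3, CASAVA and TopHat2, with no role or order stated. The treatment of reads that fit several near-identical genes is not stated, so values of such genes are uncertain.

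All genes were fitted with edgeR 4.0.16 under R 4.3.3, using filterByExpr (minimum count 10, minimum total 15), TMM scaling and the quasi-likelihood F test of BR against R without covariates. P-values were adjusted over all tested genes by the Benjamini-Hochberg method; SEs were derived from the fold change and its F statistic. The fit was checked on counts simulated with the same variability setting for every gene. That check does not cover the unevenness between the real R libraries. The alternatives were RLE, upper-quartile and total scaling, 2 other filters, DESeq2 1.42.0, a replicate block, libraries left out, and changes of the selection rule. The members, rules and lists were chosen with earlier results of these data known. The naming rule allowed the members with the highest score and the highest R mean where identifiers have no description. Lists by gene description, and tissue markers by description, could not be applied. Likeness of profiles over 4 libraries was not computed, since they are too few for a correlation.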

Additional observations from a re-analysis of the deposited data

Results flagged for a closer look

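Among the 22 members that have the highest scores or R levels, lie next to each other, stand at the border of the group or have no BR read, and in the summed member levels, 48 groups of 4 libraries were searched for a library far from the other 3. Chance marks about 1 such group in 20, and 4 were marked. That rate may not hold for groups with only a few counts. The member ranked 5, on chromosome 13, had 1.77 CPM in R1, above 1.28 to 1.36 CPM in R2 to R4. The member ranked 22, on chromosome 13, had 11.2 CPM in R3, against 3.98 to 4.70 CPM in the other R libraries. The member ranked 25, on chromosome 14, had 0 CPM in BR2, where each other BR library had 2 counts. The member ranked 75, on chromosome 8, had 1.04 CPM in BR2, against 0.463 to 0.543 CPM in the other BR libraries. By the chi-square spread used above, the marked groups of the members ranked 5 and 25 had 0.524 and 0.720. Both are under the value of about 1 for counting noise alone. Those of the members ranked 22 and 75 had 27.6 and 1.81.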

How the results depend on the processing

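Leaving out R1 and R2 or R3 and R4 together was chosen after seeing the data. In each of 17 alternative fits no tested member was higher in BR. The rule had placed all R libraries above all BR libraries for each member. This direction was therefore nearly fixed in advance, and nothing is read from it or from the calls of members. Without 1 library, the members called lower ran from 82 of 92 tested (without BR4) to 92 of 93 (without BR1). Over all settings they numbered 76 to 100. These ends were 76 of 90 tested when R3 and R4 were left out and 100 of 100 without a low-count filter. The share called lower over all tested genes ran from 5.16% (without BR3) to 16.4% (R1 and R2 left out). With the replicate block 86 of 88 tested members were called lower, beside 8.74% of all tested genes. Same-numbered libraries of the groups deviated with correlations of 0.0654, 0.0863, -0.0836 and 0.0903, and not every library correlated best with its own number, so the numbers were not taken as pairs. The log2 fold change of Glyma.05G082400.Wm82.a2.v1 was -4.79 to -4.43 and that of Glyma.06G136300.Wm82.a2.v1 -4.58 to -3.97 over all fits. Over all genes, 1739 were called lower with library totals, 5077 with R1 and R2 left out and 1903 with R3 and R4 left out; without 1 library there were 1539 (BR3) to 3870 (R2), with 1972 without BR1, 1586 without BR4, 1973 without R3 and 1890 without R4. All calls in both directions were 5409, and 10237 and 3554 without those pairs of libraries; without 1 library they were 2848 to 7333. The cause of these shifts was not tested. The selection took 38 members again with group means, 48 and 54 with BR limits of 1 and 5 CPM, 37 without R1 and R2, 57 without R3 and R4, and 64 (BR2) to 89 (R3) without 1 library. The single adjacent pair was found with each gene order. Depth limits the BR side: 1 count was 0.0578 to 0.0661 CPM there, so levels below about 0.2 CPM rest on 3 counts or fewer per library.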
